A study of Homo sapiens with 21 samples.

Results

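The batch difference of the resistant 1 effect is 1 number per gene. It is the log2 fold change of libraries labelled resistant 1 over vehicle libraries in sequencing batch 2, minus the same fold change in sequencing batch 1. Equally, it is the shift of the resistant 1 libraries from batch 1 to batch 2 minus the shift of the vehicle libraries, so each value can be split into a resistant side and a vehicle side. The members were taken by the labels: 12 of the 21 libraries of the series, in 4 of its 7 groups, with 3 libraries each. All 28008 genes in the tables were considered, and 15209 passed the low-count filter and were tested.

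Messenger RNA was measured by RNA-seq in cells labelled OCI-AML3, a human acute myeloid leukaemia line; the values of the resistant 1 libraries, given next, go against that label. The first group was resistant 1 in batch 2, with the genotype label Res and the treatment label StAMP. The second was vehicle in batch 2, with the genotype label WT and the treatment label DMSO. Resistant 1 and vehicle of batch 1 carried the same labels. StAMP is not spelled out there; the series title names stapled oncolytic peptides, membrane cholesterol and inflammatory signalling. Neither the selection of resistant 1, nor whether it is 1 clone, nor whether both batches came from the same cultures is stated in the labels. The 9 remaining libraries (a second resistant line in batch 2, parental OCI-AML3 and K562, both in batch 1) are used only as reference levels, with no test. Sequencing batch and depth changed together, the cultures may have too, and their parts in a shift of either side cannot be told apart.

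Libraries labelled resistant 1 did not look like their parental line. Over 10740 genes, the Pearson correlation of log2 levels between resistant 1 and K562 libraries was 0.909 to 0.939 for batch 2 and 0.978 to 0.980 for batch 1. K562 is an erythroleukaemia line. Between resistant 1 and parental OCI-AML3 the same correlation was 0.479 to 0.509 for batch 2 and 0.515 to 0.520 for batch 1. Between vehicle and parental OCI-AML3 it was 0.925 to 0.945 for batch 2 and 0.984 to 0.987 for batch 1. Summed levels of 37 erythroid markers were 4602 to 4845 CPM (counts scaled to a common library total) in resistant 1 and 539 to 577 CPM in vehicle of batch 2, and 8271 to 8485 CPM in resistant 1 and 459.7 to 472.3 CPM in vehicle of batch 1. Summed levels of 36 monocyte markers were 507.3 to 590.6 CPM in resistant 1 and 2105 to 2362 CPM in vehicle of batch 2, and 260.7 to 267.1 CPM in resistant 1 and 2524 to 2563 CPM in vehicle of batch 1. In bulk RNA, fewer cells of a type and less RNA per cell cannot be told apart. "Resistant 1 libraries" below means libraries with that label, and every direction given for the resistant side rests on it. A fit of the resistant 1 libraries alone called 8583 genes for their shift between batches, and a fit of the vehicle libraries alone called 9460.

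Library totals were 30719771 to 49618405 counts in resistant 1 and 36143114 to 51262668 in vehicle of batch 2, and 14066821 to 20117285 in resistant 1 and 15157255 to 21091646 in vehicle of batch 1. The median SD of log2 levels within a group was 0.138 in resistant 1 and 0.108 in vehicle of batch 2, and 0.067 in resistant 1 and 0.061 in vehicle of batch 1. Replicate 2 of batch 2 differed from replicates 1 and 3 in both groups: the geometric mean level of 76 cytosolic ribosomal protein genes was 845, 701 and 870 CPM in replicates 1 to 3 of resistant 1, and 1101, 864 and 1084 CPM in those of vehicle. No label says that the 3 replicates of a group were grown separately, and p-values then cover only the spread between these libraries, which may be technical.

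Several of the pathways that follow are switched as programs. SREBP2 is a membrane-bound factor that is released when sterols in the endoplasmic reticulum run low, and it drives cholesterol synthesis and uptake genes together with NF-Y, which binds CCAAT boxes. ATF4 is translated when eIF2alpha is phosphorylated under amino acid shortage or endoplasmic reticulum stress, and it drives amino acid synthesis and transport genes. HSF1 drives cytosolic chaperones through repeated heat shock elements, and NF-kB drives inflammatory genes together with its own inhibitors TNFAIP3 and NFKBIA.

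The promoter windows of 5 genes named in the sterol, ATF4 and heat shock results below are printed, each with the motif searched for its list. PHGDH, VLDLR, ALDH18A1, DDIT3, HSP90AA1 and HSPH1, also named there, have windows without it. HSPA6, named there too, has it in a window that is not printed. The printed windows run from 250 bases before to 50 after the annotated start, from RefSeq for GRCh38.p14. They are given 5′ to 3′ on the gene's own strand, with the searched motif in capitals wherever it occurs on either strand. HMGCS1 lies at chr5:43313363-43313662 (minus strand) and DHCR7 at chr11:71448344-71448643 (minus strand), both with a CCAAT-box motif, CCAATCA. CHAC1 lies at chr15:40953221-40953520 (plus strand), with the ATF4 composite motif TGATGNAA. HSPA8 lies at chr11:123062087-123062386 (minus strand) and CHORDC1 at chr11:90223000-90223299 (minus strand), with 2 and 3 copies of GAANNTTC, a pair of facing heat shock units.
HMGCS1: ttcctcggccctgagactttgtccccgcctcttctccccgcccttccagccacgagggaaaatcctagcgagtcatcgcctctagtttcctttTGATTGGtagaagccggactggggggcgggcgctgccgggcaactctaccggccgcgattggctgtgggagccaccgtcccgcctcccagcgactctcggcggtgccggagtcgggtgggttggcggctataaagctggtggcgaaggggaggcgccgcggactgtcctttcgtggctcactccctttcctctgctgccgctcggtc
DHCR7: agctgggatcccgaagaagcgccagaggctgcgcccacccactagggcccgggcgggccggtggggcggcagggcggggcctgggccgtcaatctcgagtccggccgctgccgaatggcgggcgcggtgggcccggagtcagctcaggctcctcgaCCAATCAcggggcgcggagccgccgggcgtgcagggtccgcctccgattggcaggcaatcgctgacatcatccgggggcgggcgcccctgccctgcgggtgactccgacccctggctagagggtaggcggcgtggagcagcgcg
CHAC1: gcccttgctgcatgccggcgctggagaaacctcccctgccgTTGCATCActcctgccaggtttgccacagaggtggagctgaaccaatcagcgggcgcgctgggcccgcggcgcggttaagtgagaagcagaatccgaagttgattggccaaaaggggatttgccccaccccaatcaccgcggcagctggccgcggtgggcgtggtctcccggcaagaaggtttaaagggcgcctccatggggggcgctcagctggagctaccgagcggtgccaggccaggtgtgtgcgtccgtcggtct
HSPA8: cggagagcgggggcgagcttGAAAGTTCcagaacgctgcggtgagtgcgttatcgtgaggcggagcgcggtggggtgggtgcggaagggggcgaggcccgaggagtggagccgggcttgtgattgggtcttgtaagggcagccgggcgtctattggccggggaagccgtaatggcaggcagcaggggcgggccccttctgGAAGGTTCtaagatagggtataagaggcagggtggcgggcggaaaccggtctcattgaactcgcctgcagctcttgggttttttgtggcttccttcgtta
CHORDC1: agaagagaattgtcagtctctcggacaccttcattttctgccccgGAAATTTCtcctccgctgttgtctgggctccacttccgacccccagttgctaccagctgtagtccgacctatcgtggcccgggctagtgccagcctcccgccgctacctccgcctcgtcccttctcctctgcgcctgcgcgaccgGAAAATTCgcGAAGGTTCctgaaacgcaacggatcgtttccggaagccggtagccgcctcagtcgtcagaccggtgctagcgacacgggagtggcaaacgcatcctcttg
CCAATCA occurred in 9 of 17 cholesterol synthesis genes that had a window, against 7.28% of 27305 windows. TGATGNAA occurred in 6 of 33 genes of the ATF4 list, against 3.67% of windows, and GAANNTTC in 9 of 24 heat shock genes, against 6.87%. These matches describe the letters only.

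The resistant 1 effect differed between the batches for 5054 of 15209 genes tested (33.2%), and no single side accounted for it. It was higher in batch 2 for 2281 genes (15.0%) and lower for 2773 (18.2%), by edgeR's quasi-likelihood F test with Benjamini-Hochberg adjusted p under 0.05. With an absolute log2 difference of at least 1, it differed for 1609 genes (10.6%). The split depended on scaling: 2870 higher and 2002 lower with upper quartile scaling, and 2742 higher and 2017 lower with all 21 libraries in the fit. Within a batch, the resistant 1 effect itself was called for 12364 genes (81.3%) in batch 2 and 12028 genes (79.1%) in batch 1. The median batch difference over all genes tested was -0.02, with medians of 0 for the resistant shift and 0 for the vehicle shift. Under upper quartile scaling these 3 medians were 0.085, -0.058 and -0.121.

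Both sides moved widely. The resistant 1 libraries differed between the batches for 8862 genes (58.3%), with 4561 higher in batch 2 (30.0%) and 4301 lower (28.3%). The vehicle libraries differed for 9367 genes (61.6%), with 4945 higher in batch 2 (32.5%) and 4422 lower (29.1%). Most of this movement was shared: 5388 genes were called on both sides in the same direction and 752 in opposite directions. The resistant and vehicle shifts share no libraries. Over 10233 genes with at least 1 CPM in each of the 4 groups, their Pearson correlation across genes was 0.620. Across all genes tested it was 0.42. Both values are given as a description.

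Among the 5054 genes called for the batch difference, the resistant side alone was called for 1153 (22.8%) and the vehicle side alone for 1548 (30.6%). Both sides moved in the same direction, one further than the other, for 1537 (30.4%). Both moved in opposite directions for 752 (14.9%), and neither side was called by itself for 64 (1.27%). A side that is not called missed the threshold, which does not show that it did not move. Where both sides were higher in batch 2, the resistant side was the further one for 302 genes and the vehicle side for 574. Where both were lower, the resistant side was the further one for 260 and the vehicle side for 401.

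**Figure D1:**
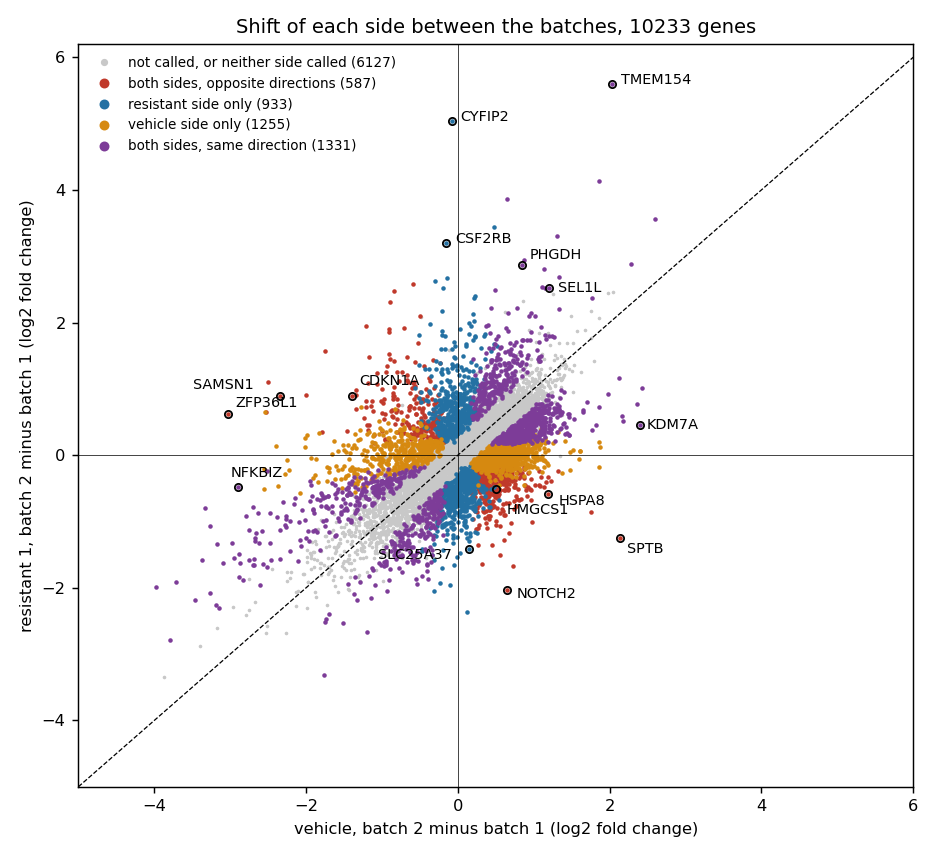
Each point is 1 of 10233 genes with at least 1 CPM in each of the 4 groups, with the log2 shift of the resistant 1 libraries (batch 2 minus batch 1) on the y axis and that of the vehicle libraries on the x axis. The dashed diagonal marks a batch difference of 0, and colours give the side called for genes with a batch difference: 933 on the resistant side only, 1255 on the vehicle side only, 1331 on both in the same direction and 587 in opposite directions; the other genes are grey.

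Genes are named here if each of the 4 groups averaged at least 1 CPM and the highest at least 10 CPM. CYFIP2, a WAVE complex protein that acts on actin, had 106, 50.2 and 74.1 CPM in resistant 1 and 26.5, 25.1 and 24 CPM in vehicle libraries of batch 2. Batch 1 gave 2.65, 2.21 and 2.07 CPM in resistant 1 and 26.3, 27.3 and 26.5 CPM in vehicle. All resistant 1 libraries lay above vehicle in batch 2 and below it in batch 1, while the vehicle libraries of the batches overlapped. The batch difference was 5.12 (SE 0.318, edgeR adjusted p = 6.03e-08), made of a resistant shift of 5.04 and a vehicle shift of -0.08.

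ZFP36L1, an RNA-binding protein that speeds decay of AU-rich mRNAs, had 89.7, 64.8 and 93.2 CPM in resistant 1 and 2.7, 1.24 and 1.74 CPM in vehicle of batch 2. The batch 1 levels were 51.9, 53.2 and 55.9 CPM in resistant 1 and 15.9, 16.2 and 15.3 CPM in vehicle. Resistant 1 was the higher group in both batches, and the vehicle libraries of batch 2 were the lowest of all. Its batch difference of 3.65 (SE 0.25, edgeR adjusted p = 4.06e-08) came mainly from a vehicle shift of -3.03, with a resistant shift of 0.62. SAMSN1, an adaptor protein of blood cells, had the same form, with a resistant shift of 0.89, a vehicle shift of -2.34 and a batch difference of 3.23 (SE 0.213, edgeR adjusted p = 1.89e-08).

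TMEM154, a transmembrane protein, had 115, 90.5 and 113 CPM in resistant 1 and 196, 159.6 and 183 CPM in vehicle of batch 2, against 2.46, 1.9 and 2.14 CPM in resistant 1 and 45.4, 43.8 and 42.2 CPM in vehicle of batch 1. Both sides were higher in batch 2 with no overlap between batches, and the resistant side rose further. The resistant shift was 5.60, the vehicle shift 2.03 and the batch difference 3.57 (SE 0.173, edgeR adjusted p = 4.56e-10). CSF2RB, the shared beta chain of the GM-CSF, IL-3 and IL-5 receptors, was called on the resistant side, with a shift of 3.20 against -0.16 in vehicle; the vehicle shift was called with upper quartile scaling (-0.348, edgeR adjusted p = 0.0434). NCF4, a subunit of the phagocyte NADPH oxidase, had a resistant shift of 2.48 and a vehicle shift of -0.84, which with the trend of each library with GC content removed (a step described at the end) was -0.234 and not called (edgeR adjusted p = 0.0645). ACVRL1, a receptor of the TGF-beta family, had a resistant shift of 1.57 and a vehicle shift of -1.75. With MLXIPL, the glucose-responsive transcription factor ChREBP, these were the 8 genes with the greatest positive batch difference, from 3.23 for SAMSN1 to 5.12 for CYFIP2.

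At the other end stood 8 genes with batch differences from -3.38 for SPTB to -1.95 for KDM7A. SPTB, the erythroid spectrin beta chain, had 67.2, 67.1 and 57.2 CPM in resistant 1 and 4.7, 6.14 and 2.67 CPM in vehicle of batch 2, against 152, 158 and 146 CPM in resistant 1 and 1.04, 1.26 and 0.725 CPM in vehicle of batch 1. The groups did not overlap, and both sides moved toward each other. Its batch difference was -3.38 (SE 0.325, edgeR adjusted p = 2.45e-06), with a resistant shift of -1.25 and a vehicle shift of 2.13. NOTCH2, a Notch receptor, moved apart instead: the resistant shift was -2.04, the vehicle shift 0.65 and the batch difference -2.69 (SE 0.178, edgeR adjusted p = 1.34e-08). CDCA7L, a MYC-interacting nuclear protein, and MBNL3, a splicing regulator, also fell on the resistant side (shifts of -1.67 and -1.01) and rose in vehicle (0.73 and 0.97). TNS1, an adhesion protein, had a resistant shift of -1.63 and a vehicle shift of 0.32, which was not called in 16 of 23 alternative fits, with values of 0.124 (upper quartile scaling, edgeR adjusted p = 0.442) to 0.848 (GC trend removed) over all of them. The histone gene HIST1H2AC was called on the vehicle side and not the resistant side, with shifts of -0.18 in resistant 1 and 1.86 in vehicle. SLC22A4, a carnitine and ergothioneine transporter, was called on the resistant side and not in vehicle (-2.36 against 0.12 in vehicle).

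For some genes, resistant 1 lay on opposite sides of vehicle in the batches. Of 10531 genes called in both batches, 10117 kept their direction and 414 (3.93%) did not. Each of the 414 was also called for the batch difference, which is no separate support. The batch difference is the batch 2 effect minus the batch 1 effect, and opposite signs make it larger than either. At least 1 CPM in each group was reached by 367. The resistant 1 effect was positive in batch 2 and negative in batch 1 for 156 of them, and negative in batch 2 and positive in batch 1 for 258. CYFIP2 was one, with effects of 1.61 in batch 2 and -3.51 in batch 1.

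KDM7A, a histone demethylase, had 97.9, 77.3 and 102 CPM in resistant 1 and 137, 119.6 and 123 CPM in vehicle of batch 2. Levels in batch 1 were 70.0, 62.8 and 70.5 CPM in resistant 1 and 24.5, 24.1 and 23.6 CPM in vehicle. Resistant 1 was the lower group in batch 2 and the higher one in batch 1, with no overlap. The effect was -0.45 in batch 2 and 1.49 in batch 1, with shifts of 0.45 in resistant 1 and 2.40 in vehicle. C3, the central complement component, had 21.7, 13.2 and 19.9 CPM in resistant 1 and 0.18, 0.248 and 0.225 CPM in vehicle of batch 2. For batch 1 the values were 10.7, 11.1 and 10.8 CPM in resistant 1 and 46.6, 50.1 and 47.5 CPM in vehicle. Vehicle was almost empty of C3 in batch 2 and the highest group in batch 1; the vehicle shift was -7.78 and the batch difference 8.53 (SE 0.274, edgeR adjusted p = 1.15e-12). THBS1, the secreted matrix protein thrombospondin 1, turned in the same way, with effects of 3.35 in batch 2 and -0.88 in batch 1 and a vehicle shift of -5.65. Parental OCI-AML3 libraries of batch 1 held 0.893 CPM of C3 and 2.61 CPM of THBS1 on average, below vehicle of batch 1.

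Other genes were named for the size of their shift on a single side. MAP1B, a microtubule-associated protein, had 457, 335 and 378 CPM in resistant 1 of batch 2 and 171, 167 and 188 CPM in resistant 1 of batch 1, a shift of 1.15. In vehicle it had 21.6, 19.8 and 21.6 CPM in batch 2 and 1.04, 0.784 and 0.544 CPM in batch 1, a shift of 4.70. Both sides rose, vehicle further, and the batch difference was -3.55 (SE 0.221, edgeR adjusted p = 6.22e-09). CA2, carbonic anhydrase 2, had at most 1.18 CPM in any resistant 1 library, against 2157, 1370.0 and 1634 CPM in vehicle of batch 2 and 206, 195 and 206 CPM in vehicle of batch 1. MYO15B, an unconventional myosin gene, had a resistant shift of -1.22 and a vehicle shift of -4.60; with the GC trend removed the resistant shift was -0.413 and not called (edgeR adjusted p = 0.171). S100P, a calcium-binding protein, rose on both sides: it had 85.8, 49.4 and 76.4 CPM in resistant 1 and 20.5, 11.8 and 10.4 CPM in vehicle of batch 2, against 2.56, 2.26 and 2.85 CPM in resistant 1 and 0.149, 0.392 and 0.362 CPM in vehicle of batch 1. Its batch difference was -0.76 (SE 0.701, edgeR adjusted p = 0.455) and was not called.

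On the resistant side, IL20RB, a chain of the IL-20 family receptors, had 77.8, 46.5 and 55.2 CPM in batch 2 and 3.38, 3.24 and 2.85 CPM in batch 1, a shift of 4.24, with at most 1.21 CPM in any vehicle library. ASS1, which makes argininosuccinate from citrulline, had resistant 1 levels of 92.4, 51.4 and 98.8 CPM in batch 2 and 4.7, 4.58 and 4.47 CPM in batch 1, and also rose in vehicle; the shifts were 4.14 and 1.86 and the batch difference 2.27 (SE 0.296, edgeR adjusted p = 8.01e-05). P2RX7, an ATP-gated channel, had a resistant shift of 4.23 and a vehicle shift of 1.60. NSUN5P1 and NSUN5P2 fell on both sides together: NSUN5P1 had a resistant shift of -3.34 and a vehicle shift of -3.87, and NSUN5P2 had -3.45 and -3.92. Their batch differences were 0.53 and 0.47, neither called. Both are pseudogenes that share reads with near-identical copies, so their counts are uncertain.

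More cholesterol synthesis genes fell than rose on the resistant side, and more rose than fell in vehicle. Of the 22 genes in the list, 13 had a lower resistant 1 effect in batch 2 and 1 a higher one, with a median batch difference of -0.48 against -0.02 over all genes tested. In the resistant 1 libraries 12 of 22 were lower in batch 2 and 3 higher (median shift -0.30), and in vehicle 13 were higher and 5 lower (median shift 0.46), against medians of 0 on both sides over all genes. With the GC trend removed, 7 were lower and 2 higher in resistant 1 (median -0.19), and 15 were higher and 1 lower in vehicle (median 0.43). Of the 14 called, 5 moved in opposite directions, 6 on the vehicle side only, 3 in the same direction and 0 on the resistant side only. The geometric mean level of the 22 genes was 66.0, 80.5 and 73.7 CPM in resistant 1 and 61.4, 63.1 and 67.4 CPM in vehicle of batch 2, and 88.6, 89.0 and 88.0 CPM in resistant 1 and 54.0, 55.4 and 55.2 CPM in vehicle of batch 1. The gap between resistant 1 and vehicle was therefore narrower in batch 2, and 1 resistant 1 library lay below the highest vehicle library there. K562 libraries stood at 110.7 to 114.2 CPM.

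HMGCS1, which makes HMG-CoA and whose promoter is printed above, had 192, 199 and 222 CPM in resistant 1 and 163, 166 and 163 CPM in vehicle of batch 2. In batch 1 it had 301, 283 and 291 CPM in resistant 1 and 118, 115 and 113 CPM in vehicle. The groups did not overlap in either batch, and the distance between them was smaller in batch 2. The batch difference was -1.02 (SE 0.0976, edgeR adjusted p = 9.23e-07), with a resistant shift of -0.51 and a vehicle shift of 0.50, which was 0.313 with upper quartile scaling and 0.179 with the GC trend removed.

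SQLE, squalene epoxidase, a rate-limiting step of the sterol branch, had 211, 225 and 242 CPM in resistant 1 and 200.2, 224 and 234 CPM in vehicle of batch 2. Batch 1 gave 338, 316 and 309 CPM in resistant 1 and 138, 139 and 141 CPM in vehicle. The 2 groups overlapped in batch 2 and were far apart in batch 1, with an effect of 0.04 in batch 2 and 1.20 in batch 1. Its batch difference was -1.16 (SE 0.107, edgeR adjusted p = 5.78e-07).

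DHCR7, which makes cholesterol in the last step of one branch, had 63.5, 96 and 84.3 CPM in resistant 1 and 41.9, 44.8 and 55.5 CPM in vehicle of batch 2, against 132, 141 and 140.5 CPM in resistant 1 and 33.5, 32.7 and 35.7 CPM in vehicle of batch 1. Resistant 1 was higher in both batches, with effects of 0.78 in batch 2 and 2.02 in batch 1 and a batch difference of -1.24 (SE 0.177, edgeR adjusted p = 5.79e-05). The resistant shift of DHCR7 was -0.316 (edgeR adjusted p = 0.0503) with the GC trend removed, and its vehicle shift 0.289 (edgeR adjusted p = 0.062) with upper quartile scaling.

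More genes of sterol sensing and uptake rose than fell on both sides. Of 22 tested, 11 rose and 2 fell in resistant 1 (median 0.21), and 17 rose and 0 fell in vehicle (median 0.54). The batch difference was lower for 6 and higher for 2 (median -0.21), where 18.2% of all genes tested were lower and 15.0% higher. Removing the GC trend gave 15 that rose and 0 that fell in resistant 1 (median 0.42), and 16 and 0 in vehicle (median 0.57). With upper quartile scaling the medians were 0.349 in vehicle and -0.101 for the batch difference.

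INSIG1, which holds SREBP precursors in the endoplasmic reticulum, was called in vehicle and not in resistant 1 (shifts of 0.09 in resistant 1 and 0.54 in vehicle). Its batch difference of -0.45 was not called with all 21 libraries in the fit (-0.351, edgeR adjusted p = 0.368) or with upper quartile scaling (-0.337, edgeR adjusted p = 0.0507). TMEM97, a sterol-responsive membrane protein, and SOAT1, which esterifies cholesterol for storage, were also called in vehicle and not in resistant 1, with shifts of -0.05 and 0.15 in resistant 1, against 0.82 and 0.78 in vehicle. SREBF2, the gene of SREBP2, had a resistant shift of 0.24, a vehicle shift of 0.27 and a batch difference of -0.03 (SE 0.105, edgeR adjusted p = 0.892), which was not called. With upper quartile scaling neither of its side shifts was called (0.153 in resistant 1, edgeR adjusted p = 0.0851, and 0.078 in vehicle, edgeR adjusted p = 0.382), and with the GC trend removed they were 0.635 and 0.795. Without replicate 1 of resistant 1 in batch 2 its resistant shift was 0.15 and not called. NPC2, which carries cholesterol out of lysosomes, ran the other way, with 33.8, 19.8 and 33.4 CPM in resistant 1 and 13.5, 11.2 and 12.3 CPM in vehicle of batch 2, against 11.9, 13 and 10.3 CPM in resistant 1 and 13.3, 13.9 and 15.5 CPM in vehicle of batch 1. Of its sides only the resistant one was called (1.30), and the batch difference was 1.50 (SE 0.241, edgeR adjusted p = 0.000151).

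Fatty acid synthesis genes were mixed, with 9 of 25 lower and 5 higher for the batch difference (median -0.23). By side, 10 rose and 5 fell in resistant 1 (median 0.23), and 11 rose and 7 fell in vehicle (median 0.24). SCD, the desaturase that makes oleate, rose on both sides, by 0.66 in resistant 1 and 1.14 in vehicle on the log2 scale. FASN, fatty acid synthase, had 193, 272 and 229 CPM in resistant 1 and 444, 568 and 446 CPM in vehicle of batch 2, against 619, 717 and 660.4 CPM in resistant 1 and 791, 831 and 864 CPM in vehicle of batch 1. It was lower in batch 2 on both sides, by more in resistant 1 (shifts of -1.52 and -0.77). The shifts of FASN with the GC trend removed were -0.707 in resistant 1 and 0.218 in vehicle, the second not called.

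ATF4 targets and amino acid synthesis genes rose on both sides between the batches, and rose further on the resistant side. Of 40 tested, 36 rose and 3 fell in resistant 1 (median 1.36), and 30 rose and 1 fell in vehicle (median 0.67). Higher batch differences were found for 23 genes and lower ones for 1 (median 0.62), and 19 of these 24 genes moved in the same direction on both sides. The geometric mean of 36 members was 173, 178 and 184 CPM in resistant 1 and 195, 143 and 163 CPM in vehicle of batch 2, and 75.0, 75.8 and 74.4 CPM in resistant 1 and 104, 105 and 106 CPM in vehicle of batch 1. Resistant 1 and vehicle overlapped in batch 2, while resistant 1 lay below vehicle in batch 1.

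PHGDH, the first enzyme of serine synthesis, had 357, 359.5 and 427 CPM in resistant 1 and 369, 388 and 305 CPM in vehicle of batch 2. Levels in batch 1 were 49.2, 55.9 and 51.3 CPM in resistant 1 and 181, 198 and 209.9 CPM in vehicle. The groups overlapped in batch 2 and were separate in batch 1, with effects of 0.11 in batch 2 and -1.92 in batch 1. The batch difference was 2.02 (SE 0.139, edgeR adjusted p = 1.89e-08), from shifts of 2.87 in resistant 1 and 0.85 in vehicle. ALDH1L2, a mitochondrial enzyme of folate metabolism, had shifts of 2.53 in resistant 1 and 1.11 in vehicle and a batch difference of 1.42 (SE 0.114, edgeR adjusted p = 1.13e-07).

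VLDLR, a lipoprotein receptor counted in the same list, had 2.92, 5.31 and 4.43 CPM in resistant 1 of batch 2 and 0.137, 0 and 0.453 CPM in resistant 1 of batch 1, with 81.9, 69.2 and 59.9 CPM in vehicle of batch 2 and 47.1, 42.4 and 41 CPM in vehicle of batch 1. Its batch difference was 3.84 (SE 0.546, edgeR adjusted p = 9.08e-05). CHAC1, which degrades glutathione and whose promoter is printed above, was called in resistant 1, with a shift of 1.43 against -0.28 in vehicle and a batch difference of 1.71 (SE 0.393, edgeR adjusted p = 0.00459). Without replicate 1 of vehicle in batch 2 its vehicle shift was called (-0.608, edgeR adjusted p = 0.0272), and with the replicate block within batch its batch difference was not (1.748, edgeR adjusted p = 0.0502). The exception was ALDH18A1, the first enzyme of proline synthesis, which fell by 0.69 in resistant 1 and rose by 0.47 in vehicle on the log2 scale. DDIT3, the stress factor CHOP, had 41.2, 37.6 and 79.1 CPM in resistant 1 and 11.7, 7.82 and 21.2 CPM in vehicle of batch 2, against 21.1, 19.6 and 19.8 CPM in resistant 1 and 9.62, 11.8 and 8.88 CPM in vehicle of batch 1. Libraries of batch 2 were spread widely, and its batch difference of 0.97 (SE 0.532, edgeR adjusted p = 0.199) was not called.

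Genes of the unfolded protein response also rose more often than they fell, with 26 of 33 genes higher and 3 lower in resistant 1 (median 0.68), and 20 higher and 7 lower in vehicle (median 0.35, or 0.161 with upper quartile scaling). For the batch difference 15 were higher and 2 lower (median 0.23). SEL1L, an adaptor of the degradation complex in the endoplasmic reticulum, had 459, 331 and 411 CPM in resistant 1 and 261, 221 and 260.5 CPM in vehicle of batch 2. For batch 1 the values were 71.5, 66.6 and 71.8 CPM in resistant 1 and 114, 105 and 105 CPM in vehicle. Resistant 1 was above vehicle in batch 2 and below it in batch 1, and the batch difference was 1.32 (SE 0.143, edgeR adjusted p = 3.04e-06). HSPA5, the chaperone BiP, had a resistant shift of 1.04, a vehicle shift of 0.54 and a batch difference of 0.50 (SE 0.124, edgeR adjusted p = 0.00488). CRELD2 differed from these: it fell in vehicle, with shifts of -0.29 in resistant 1 and -1.45 in vehicle, and the resistant shift was called with upper quartile scaling (-0.374, edgeR adjusted p = 0.0336) and without replicate 1 of resistant 1 in batch 2 (-0.42, edgeR adjusted p = 0.0243). SSR3, a translocon-associated protein, rose on both sides, by 0.63 in resistant 1 and 1.05 in vehicle on the log2 scale, and its batch difference of -0.43 was not called with upper quartile scaling or with the GC trend removed.

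More heat shock genes fell than rose on the resistant side. In vehicle as many rose as fell as fitted, but more rose than fell with the GC trend removed. Of 29 tested, 17 fell and 4 rose in resistant 1 (median -0.44), and 10 rose and 10 fell in vehicle (median 0, or -0.07 with upper quartile scaling). Of the batch differences 14 were lower and 1 higher (median -0.41), with 7 of these 15 on the resistant side only and 3 on the vehicle side only. With the GC trend removed, 6 rose and 15 fell in resistant 1 (median -0.21), and 14 rose and 3 fell in vehicle (median 0.15). The median batch difference was then -0.51. HSP90AA1, the inducible cytosolic HSP90, had 993, 1659 and 1547 CPM in resistant 1 and 2680.0, 2864 and 2178 CPM in vehicle of batch 2. In batch 1 it had 2953, 2697 and 2760.0 CPM in resistant 1 and 2589, 2576 and 2544 CPM in vehicle. The resistant 1 libraries of batch 2 lay below all others; the resistant side fell by 1.00 on the log2 scale, the vehicle shift was 0, and the resistant 1 effect fell by 1.00 (edgeR adjusted p = 0.0012).

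HSPA8, the constitutive cytosolic HSC70, had 1485, 1983 and 2103 CPM in resistant 1 and 4481, 5194 and 4292 CPM in vehicle of batch 2. Batch 1 gave 2870.0, 2767 and 2758 CPM in resistant 1 and 2033, 2070.0 and 2054 CPM in vehicle. Resistant 1 was below vehicle in batch 2 and above it in batch 1, with no overlap within a batch. Both sides moved, by -0.59 in resistant 1 and 1.18 in vehicle, and the batch difference was -1.77 (SE 0.154, edgeR adjusted p = 2.92e-07). CHORDC1, an HSP90 co-chaperone, and HSPH1, an HSP110 chaperone, were called in resistant 1, with shifts of -0.96 and -0.90 against 0.19 and 0.15 in vehicle. Without replicate 3 of vehicle in batch 2 their vehicle shifts were called (0.29 with edgeR adjusted p = 0.0123 for CHORDC1, and 0.27 with edgeR adjusted p = 0.0143 for HSPH1), and that of CHORDC1 also without a low-count filter (0.218). HSPA6, a strictly inducible HSP70, was the 1 gene with a higher batch difference, 1.55 (SE 0.288, edgeR adjusted p = 0.000496), at a mean of 6.08 CPM or less in any of the 4 groups.

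Proteasome subunits had a lower batch difference for 18 of 35 and a higher one for 3 (median -0.33). In resistant 1, 5 rose and 14 fell (median -0.12), and in vehicle 18 rose and 6 fell (median 0.19); with upper quartile scaling the medians were -0.207 in resistant 1, -0.004 in vehicle and -0.217 for the batch difference. PSMD14, the deubiquitinase of the lid, was called in vehicle (shifts of -0.13 in resistant 1 and 0.74 in vehicle), with a batch difference of -0.87 (SE 0.107, edgeR adjusted p = 1.19e-05); with the GC trend removed both sides were called, at -0.381 in resistant 1 and 0.356 in vehicle. PSME3, an activator of the core particle, had 189, 231 and 192 CPM in resistant 1 and 259, 316 and 262 CPM in vehicle of batch 2, against 275, 281 and 281 CPM in resistant 1 and 222, 218 and 228 CPM in vehicle of batch 1. Its effect was -0.45 in batch 2 and 0.33 in batch 1. PSME1, a subunit of the interferon-inducible activator, was called in resistant 1 (0.84, against 0.02 in vehicle), and with the GC trend removed also in vehicle (0.302, edgeR adjusted p = 0.00542).

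**Figure D2:**
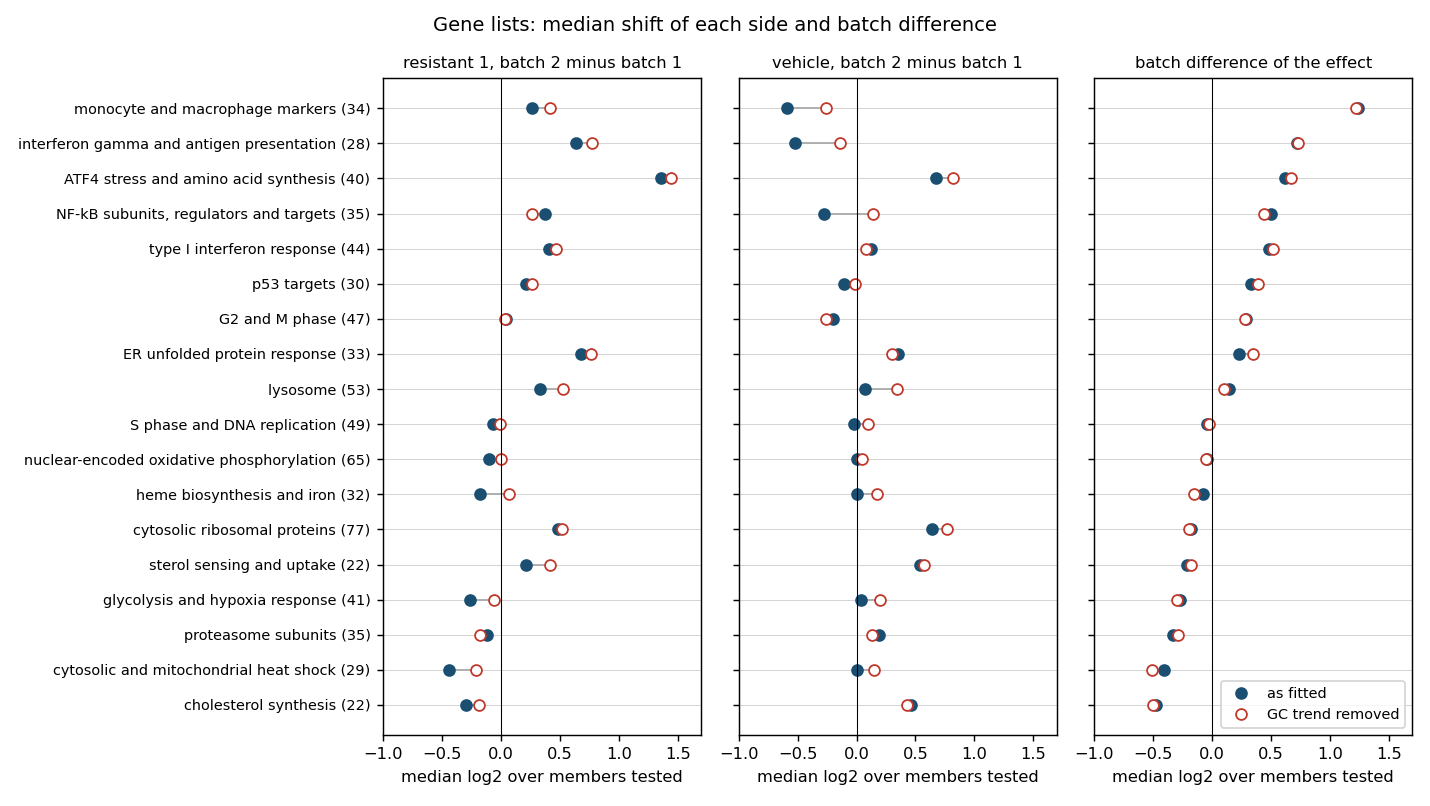
Median log2 values of 18 gene lists (number of members tested in brackets) for the shift of resistant 1, the shift of vehicle and the batch difference, as fitted (filled) and with the trend of each library with transcript GC content removed (open). Cholesterol synthesis lies left of 0 for resistant 1 (-0.30) and right of 0 for vehicle (0.46), ATF4 targets lie right of 0 on both sides (1.36 and 0.67), and for NF-kB the vehicle median changes from -0.28 to 0.14 with the trend removed.

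NF-kB regulators and targets had a higher batch difference for 16 of 35 genes and a lower one for 4 (median 0.50). In resistant 1, 16 rose and 9 fell (median 0.37), and in vehicle 10 rose and 17 fell (median -0.28). The vehicle median changed sign with the GC trend removed: 10 rose and 7 fell (median 0.14). The resistant median was then 0.26 and the median batch difference 0.44. The 27 members with at least 1 CPM in each group had a median GC content of 54.0% and, as fitted, a vehicle median of -0.19. Without replicate 1 of resistant 1 in batch 2, the resistant median was 0.086. TNFAIP3, the deubiquitinase A20 that restrains NF-kB, had 46.2, 34.5 and 44.9 CPM in resistant 1 and 31.5, 40.4 and 49 CPM in vehicle of batch 2. The batch 1 levels were 17.5, 17.5 and 17.4 CPM in resistant 1 and 68.1, 68 and 64 CPM in vehicle. The groups overlapped in batch 2 and lay far apart in batch 1, and the batch difference was 1.99 (SE 0.19, edgeR adjusted p = 1.07e-06), with a resistant shift of 1.26 and a vehicle shift of -0.73.

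NFKBIZ, a nuclear IkB protein, had 2.61, 3.06 and 1.82 CPM in resistant 1 and 5.17, 3.8 and 4.92 CPM in vehicle of batch 2, against 3.83, 3.34 and 3.43 CPM in resistant 1 and 36.8, 32.7 and 34 CPM in vehicle of batch 1. Vehicle of batch 1 stood far above the other groups. Its resistant shift was -0.49, which was not called in 5 of 23 alternative fits (-0.325 without replicate 3 of resistant 1 in batch 2), its vehicle shift -2.89 and its batch difference 2.41 (SE 0.24, edgeR adjusted p = 1.34e-06). NFKBIA, the inhibitor IkB-alpha, moved in resistant 1 (0.48); its vehicle shift of -0.24 was not called, but was in 12 of 23 alternative fits, among them upper quartile scaling (-0.434, edgeR adjusted p = 0.00193). RELB, the NF-kB subunit of the non-canonical pathway, had shifts of 1.22 in resistant 1 and -0.68 in vehicle; with the GC trend removed they were 2.007 and 0.28, the second not called. Among lower genes, CCND1, cyclin D1, fell by 0.78 in resistant 1 and rose by 0.47 in vehicle on the log2 scale, and CD44, the hyaluronan receptor, was called in vehicle and not in resistant 1 (shifts of 0.04 in resistant 1 and 0.99 in vehicle).

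More interferon genes rose than fell on the resistant side. In the type I list, 20 of 44 rose and 2 fell in resistant 1 (median 0.41), and 12 rose and 10 fell in vehicle (median 0.12, or -0.073 with upper quartile scaling). Over all genes tested, 30.0% rose and 28.3% fell in resistant 1, and 32.5% rose and 29.1% fell in vehicle. The type I batch difference was higher for 13 and lower for 4 (median 0.48), or 38.6% called against 33.2% of all genes tested. In the interferon gamma and antigen presentation list, 14 of 28 rose and 5 fell in resistant 1 (median 0.64), and 7 rose and 15 fell in vehicle (median -0.52). Removing the GC trend left 8 that rose and 10 that fell in vehicle (median -0.14). The batch difference there was higher for 17 and lower for 3 (median 0.72), and it was 0.489 without replicate 3 of resistant 1 in batch 2. Without replicate 1 of resistant 1 in batch 2, the resistant median was 0.299. With a mean of at least 10 CPM required, the medians were 0.21 in resistant 1, -0.351 in vehicle and 0.407 for the batch difference. HLA-C, a class I molecule, had 4.13, 1.82 and 5.22 CPM in resistant 1 and 123, 101 and 114 CPM in vehicle of batch 2. Levels in batch 1 were 1.6, 1.03 and 1.49 CPM in resistant 1 and 197, 202 and 209.7 CPM in vehicle. Resistant 1 stayed far below vehicle in both batches, and the distance was smaller in batch 2, with a batch difference of 2.27 (SE 0.393, edgeR adjusted p = 0.000702). Its vehicle shift of -0.85 was -0.007 with the GC trend removed, and not called.

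MX2, an interferon-induced GTPase, rose in resistant 1, with 0.954, 0.872 and 1.1 CPM in batch 2 and 0.182, 0.206 and 0.259 CPM in batch 1, and had 68.7 to 90.3 CPM in all vehicle libraries; its batch difference was 1.83 (SE 0.279, edgeR adjusted p = 8.78e-05). Summed monocyte markers moved with these lists: they were 507.3 to 590.6 CPM in resistant 1 of batch 2 and 260.7 to 267.1 CPM in resistant 1 of batch 1, and their part in the NF-kB and interferon results was not tested.

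More erythroid markers fell than rose on the resistant side. Of 37 erythroid markers, 25 were lower and 3 higher in resistant 1 of batch 2 (median shift -0.72), and with the GC trend removed 21 were lower and 8 higher (median -0.50). In vehicle 17 of the 37 were at 0 in batch 2 and 14 in batch 1. A batch difference could therefore be measured on both sides for 12, of which 6 were lower and 2 higher (median -0.48). Among these 12, vehicle had 7 higher and 3 lower (median 0.33), and resistant 1 had 2 higher and 3 lower (median -0.16). Of the 8 called (21.6% of the 37, against 33.2% of all genes tested), 5 were on the vehicle side only and 0 on the resistant side only. The others were 2 in opposite directions and 1 in the same direction. HBZ, the embryonic zeta globin, had 11.2, 18.1 and 7.84 CPM in resistant 1 of batch 2 and 318, 371 and 355 CPM in resistant 1 of batch 1, and 0 counts in all vehicle libraries (edgeR adjusted p = 1.65e-05 for the resistant shift). The K562 libraries averaged 256 CPM. HBA2, an adult alpha globin, had 4.92, 6.26 and 4.43 CPM in resistant 1 of batch 2 and 67.6, 78.8 and 74.1 CPM in resistant 1 of batch 1. HBG2, a fetal gamma globin, had 368, 498 and 399 CPM in resistant 1 of batch 2 and 1172, 1203 and 1214 CPM in resistant 1 of batch 1. HBA2 and HBG2 have near-identical copies, so the split of reads between copies is uncertain. All 3 globins were lower in batch 2 with no overlap between the batches, with shifts of -4.80 for HBZ, -3.81 for HBA2 and -1.50 for HBG2, and their batch differences had no measurable vehicle side.

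GATA1, the master erythroid factor, had 169.5, 164 and 174 CPM in resistant 1 of batch 2 and 199.9, 225 and 198 CPM in resistant 1 of batch 1. Its shift was -0.30, and 0.274 with the GC trend removed. LMO2, an adaptor of the GATA1 complex, had a resistant shift of -0.74, a vehicle shift of 0.46 and a batch difference of -1.20 (SE 0.157, edgeR adjusted p = 2.48e-05). NFE2, a factor of late erythroid genes, had 123 to 134 CPM in resistant 1 of batch 2 and 154 to 161 CPM in resistant 1 of batch 1, a shift of -0.29 that was not called, but was in 8 of 23 alternative fits (-0.376 with upper quartile scaling, edgeR adjusted p = 0.0232). In vehicle it had 3.5, 2.04 and 1.48 CPM in batch 2 and 8.18, 8.76 and 9.85 CPM in batch 1, a shift of -1.88.

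Heme and iron genes had a lower batch difference for 13 of 32 and a higher one for 3 (median -0.08, but 0.028 with upper quartile scaling and 0.016 with all 21 libraries), with 8 higher and 14 lower in resistant 1 (median -0.18) and 11 higher and 11 lower in vehicle (median 0). With the GC trend removed 8 were higher and 11 lower in resistant 1 (median 0.07) and 15 higher and 2 lower in vehicle (median 0.17), and with upper quartile scaling the vehicle median was -0.161. Without replicate 1 of resistant 1 in batch 2, the median batch difference was -0.181, and without replicate 1 of vehicle in batch 2 it was -0.166. SLC25A37, mitoferrin 1, which imports iron into mitochondria, had 129, 122 and 107 CPM in resistant 1 and 106, 90.6 and 104 CPM in vehicle of batch 2. For batch 1 the values were 323, 322 and 307 CPM in resistant 1 and 92.2, 93.6 and 86 CPM in vehicle. Only its resistant side was called (-1.41, against 0.14 in vehicle), and the batch difference was -1.55 (SE 0.114, edgeR adjusted p = 3.83e-08); the vehicle shift was called with the GC trend removed (0.232, edgeR adjusted p = 0.0192) and without replicate 2 of vehicle in batch 2 (0.201, edgeR adjusted p = 0.0394). FECH, ferrochelatase, moved toward vehicle from both sides (shifts of -0.52 in resistant 1 and 0.62 in vehicle). SLC40A1, the iron exporter ferroportin, was called in vehicle and not in resistant 1 (shifts of 0.19 in resistant 1 and 1.86 in vehicle), and BLVRA, biliverdin reductase, had a resistant shift of 0.76 and a batch difference of 1.07 (SE 0.136, edgeR adjusted p = 1.63e-05).

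Of 36 monocyte markers, 34 were tested and 12 had a higher batch difference against 1 lower (median 1.24). That is 38.2% called, against 33.2% of all genes tested. In resistant 1, 11 rose and 1 fell, and in vehicle 6 rose and 19 fell. Many lay under 1 CPM in at least 1 group. For the 9 with at least 1 CPM in each group, the medians were 1.29 for the batch difference, 1.13 for resistant 1 and -0.33 for vehicle. SPI1, the factor PU.1 of myeloid cells, had 30.9, 23.4 and 27.4 CPM in resistant 1 and 93.6, 87 and 99 CPM in vehicle of batch 2. In batch 1 it had 18.2, 21.5 and 19.6 CPM in resistant 1 and 153, 153 and 157 CPM in vehicle. Vehicle was lower in batch 2 with no overlap (shift -0.73), yet with the GC trend removed that shift was 0.245 and the resistant one 1.271, against 0.46 as fitted; the batch difference was 1.19 (SE 0.135, edgeR adjusted p = 4.81e-06). S100A9, a calprotectin subunit, had at most 0.206 CPM in any resistant 1 library, against 10.7, 5.48 and 6.04 CPM in vehicle of batch 2 and 85.1, 87.2 and 83.1 CPM in vehicle of batch 1.

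**Figure D3:**
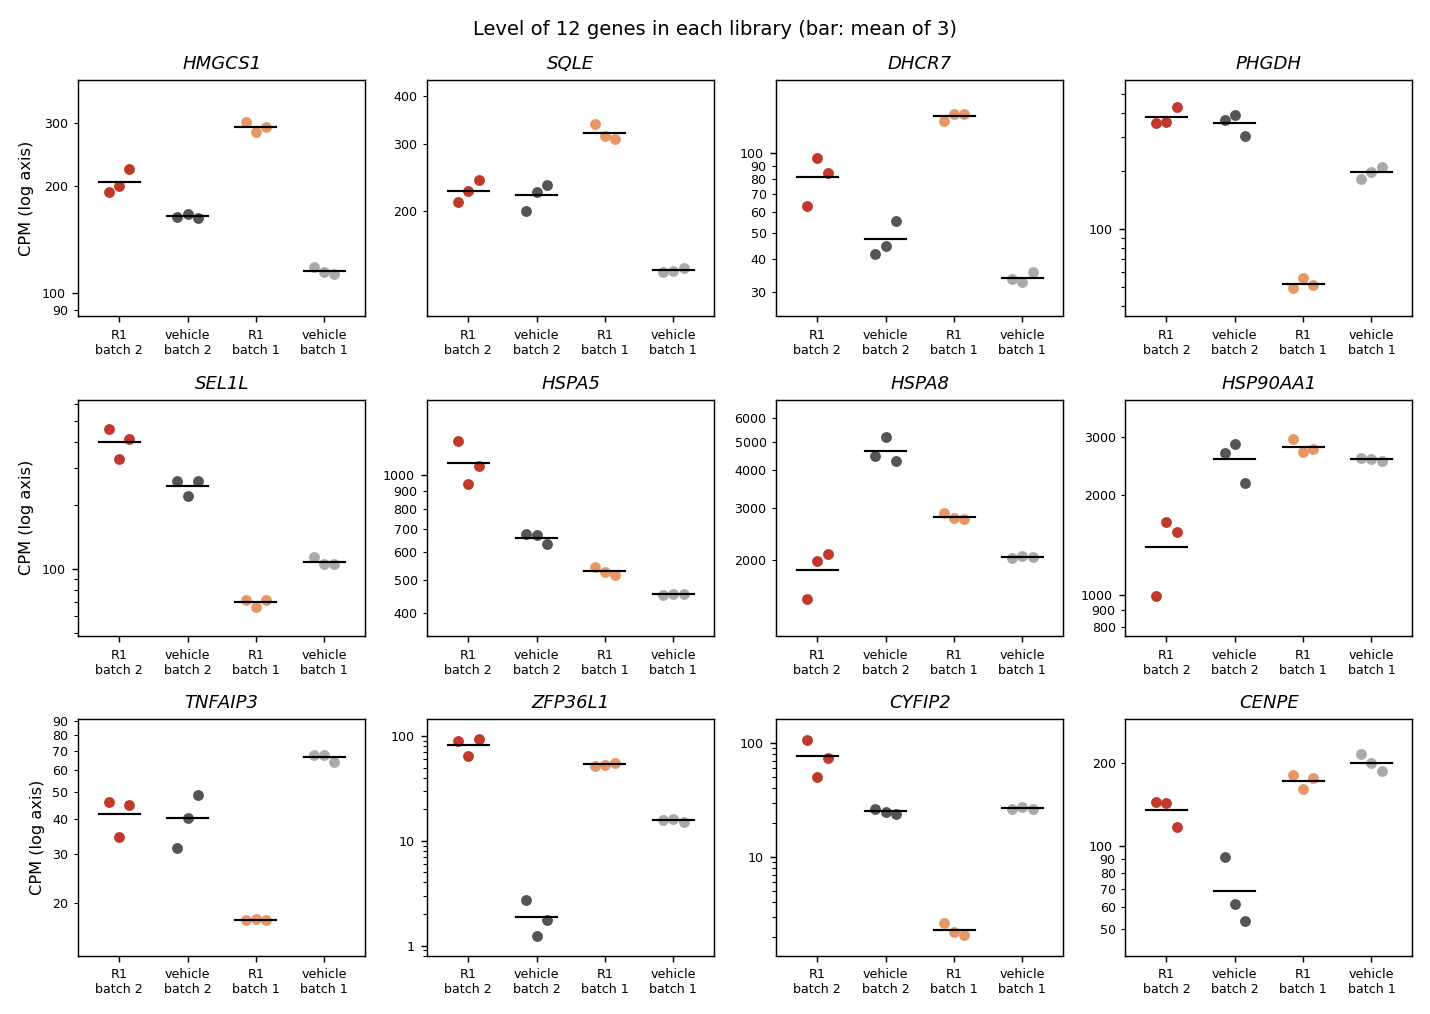
Level of 12 genes in each library, in CPM on a log axis, with the 3 libraries of each group as points and their mean as a bar; groups run from resistant 1 (R1) and vehicle of batch 2 to resistant 1 and vehicle of batch 1. HMGCS1 shows groups that approach each other (resistant shift -0.51, vehicle shift 0.50), HSP90AA1 a lower resistant side beside a level vehicle side (vehicle shift 0), CENPE a vehicle shift of -1.54, and PHGDH both sides higher in batch 2 (2.87 and 0.85).

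Genes of the G2 and M phases had a higher batch difference for 15 of 47 and a lower one for 0 (median 0.29). The share called was 31.9%, against 33.2% of all genes tested. In resistant 1, 15 rose and 12 fell (median 0.04, or -0.046 with upper quartile scaling), and in vehicle 5 rose and 24 fell (median -0.20). CENPE, a kinetochore motor, had 145, 144 and 118 CPM in resistant 1 and 91.4, 62 and 53.7 CPM in vehicle of batch 2. Batch 1 gave 181, 161 and 176 CPM in resistant 1 and 215, 201 and 187 CPM in vehicle. Vehicle of batch 2 was the lowest group; the vehicle shift was -1.54 and the batch difference 1.19 (SE 0.211, edgeR adjusted p = 0.000619). The resistant shift of CENPE, -0.35, was not called, but was in 10 of 23 alternative fits, among them upper quartile scaling (-0.434, edgeR adjusted p = 0.0232). PTTG1, securin, was called in vehicle (shifts of 0.14 in resistant 1 and -0.66 in vehicle), and without replicate 1 of resistant 1 in batch 2 also in resistant 1 (0.221, edgeR adjusted p = 0.0276). NDC80, a kinetochore subunit, was called in resistant 1 (0.67, against -0.04 in vehicle), and its vehicle shift was called with upper quartile scaling (-0.236, edgeR adjusted p = 0.0205), with a mean of at least 10 CPM (-0.195, edgeR adjusted p = 0.0429) and with the GC trend removed (-0.351, edgeR adjusted p = 0.00181). Of 49 S phase genes, 7 were lower and 2 higher for the batch difference (18.4% called, against 33.2% of all genes tested). Their medians were -0.04 for the batch difference (0.064 with upper quartile scaling), -0.07 for resistant 1 and -0.02 for vehicle. The replicates of batch 2 differed in this respect: the geometric mean of the S phase genes was 98.5, 118 and 108 CPM in resistant 1 and 84.8, 111 and 84.4 CPM in vehicle. Its part in these lists was not tested.

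Targets of p53 had a higher batch difference for 14 of 30 and a lower one for 4 (median 0.33), with 12 higher and 6 lower in resistant 1 and 8 higher and 13 lower in vehicle. CDKN1A, the cell cycle inhibitor p21, had 22.9, 15.6 and 17.8 CPM in resistant 1 and 19, 11.5 and 14 CPM in vehicle of batch 2. The batch 1 levels were 10.1, 10.5 and 9.64 CPM in resistant 1 and 35.7, 39 and 42.4 CPM in vehicle. The groups overlapped in batch 2 and were separate in batch 1, and the batch difference was 2.29 (SE 0.234, edgeR adjusted p = 2.02e-06), with shifts of 0.90 in resistant 1 and -1.39 in vehicle. BBC3, the BH3-only protein PUMA, rose in resistant 1 (1.25) and had a vehicle shift of -0.81; with the GC trend removed these were 2.321 and 0.377, the second not called. In the list of the BCL2 family, death receptors and caspases, 21 of 38 were higher and 4 lower in resistant 1 and 12 were higher and 10 lower in vehicle, and 14 had a higher batch difference and 4 a lower one (median 0.27).

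Glycolysis and hypoxia genes had a lower batch difference for 18 of 41 and a higher one for 6 (median -0.27). In resistant 1, 10 rose and 22 fell (median -0.26, or -0.06 with the GC trend removed), and in vehicle 17 rose and 12 fell (median 0.04, or 0.20 with the GC trend removed and -0.15 with upper quartile scaling). HK2, hexokinase 2, had 51.7, 66 and 70.8 CPM in resistant 1 and 289.8, 269 and 315 CPM in vehicle of batch 2. Levels in batch 1 were 114, 111 and 112 CPM in resistant 1 and 195, 184 and 198 CPM in vehicle. Resistant 1 was lower in both batches and the distance was greater in batch 2, with a batch difference of -1.44 (SE 0.134, edgeR adjusted p = 6.23e-07). EGLN1, a prolyl hydroxylase that marks HIF for decay, rose in vehicle and was not called in resistant 1 (shifts of 0.01 in resistant 1 and 1.00 in vehicle), and ENO2, a neuronal enolase, fell in vehicle (shifts of 0.01 in resistant 1 and -1.26 in vehicle). The resistant shift of ENO2 was called with the GC trend removed (0.313, edgeR adjusted p = 0.0404). EPAS1, the hypoxia factor HIF-2alpha, had an effect of 1.42 in batch 2 and -1.74 in batch 1, and its 3 resistant 1 libraries of batch 2 spread over 72.4, 32.3 and 55.3 CPM.

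The lists given next had median batch differences between -0.20 and 0.30, in part with members called in both directions. Among lists not described, the medians ran from -0.19 (cholesterol efflux and LXR targets, 16 tested) to 0.99 (fibroblast and epithelial markers, 13 tested). More cytosolic ribosomal protein genes rose than fell on both sides. Of 77 tested, 56 were higher and 5 lower in resistant 1 (median 0.48), and 59 higher and 5 lower in vehicle (median 0.64). For the batch difference 9 were lower and 0 higher (median -0.18). That was 11.7% called, fewer than the 33.2% of all genes tested. RPL22 had shifts of 0.79 in resistant 1 and 1.23 in vehicle and a batch difference of -0.44 (SE 0.124, edgeR adjusted p = 0.0104). Oxidative phosphorylation genes had 5 of 65 higher and 8 lower (20% called, median -0.04, or 0.067 with upper quartile scaling). Their medians were -0.10 in resistant 1 and 0 in vehicle. NRF2 targets had 10 of 44 higher and 12 lower (median 0.02), 50% called against 33.2% of all genes tested. By side, 12 rose and 11 fell in resistant 1 (median -0.04), and 17 rose and 18 fell in vehicle (median -0.08). More replication-dependent histones were lower than higher in batch 2 on both sides. In resistant 1, 18 of 34 were lower and 1 higher (median -0.48). In vehicle 23 were lower and 2 higher (median -1.39, or -0.89 with the GC trend removed). The median batch difference was 0.30. For the 6 members with at least 1 CPM in every group it was -0.47 (1 higher and 2 lower), with medians of -0.18 in resistant 1 and -0.07 in vehicle. Lysosome genes had 19 of 53 higher and 7 lower (49.1% called, median 0.14, or 0.28 with a mean of at least 10 CPM). By side, 29 rose and 11 fell in resistant 1 (median 0.33), and 24 rose and 16 fell in vehicle (median 0.07). With the GC trend removed these medians were 0.53 and 0.34. Sphingolipid genes had 6 of 34 higher and 12 lower (52.9% called, median -0.20). Of them 15 rose and 8 fell in resistant 1 (median 0.21), and 17 rose and 6 fell in vehicle (median 0.49).

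The shifts of both sides followed the GC content of the transcripts. Of 10233 genes with at least 1 CPM in each group, 9949 (97.2%) had a GC value. It was taken, like the length, from the longest GENCODE transcript of the gene symbol, with older symbols matched through RefSeq. Across these genes the Spearman correlation with GC content was -0.46 for the resistant shift, -0.65 for the vehicle shift and 0.24 for the batch difference, and the correlation with transcript length was 0.15, 0.19 and -0.03. From the quartile lowest in GC to the highest, the median resistant shift was 0.31, 0.21, -0.02 and -0.42, and the median vehicle shift 0.56, 0.37, 0.03 and -0.49. The median batch difference over the same quartiles was -0.22, -0.15, -0.02 and 0.07.

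**Figure D4:**
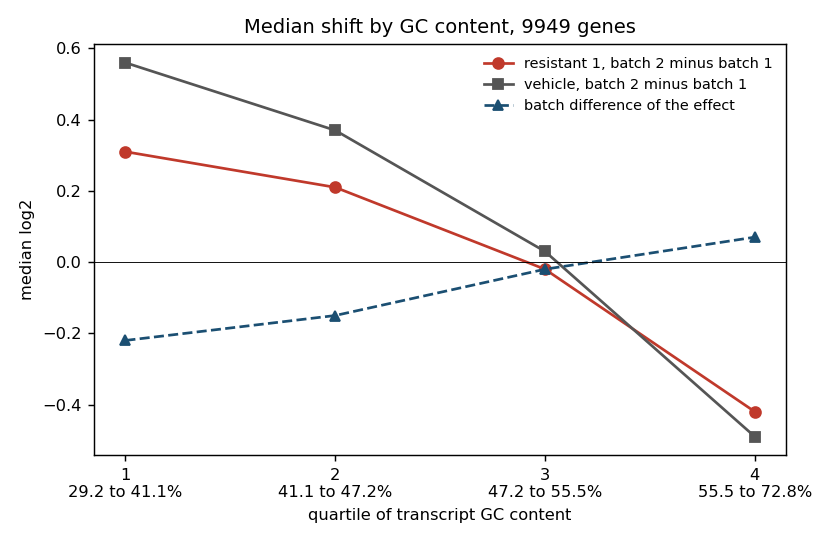
Median log2 shift of resistant 1, of vehicle and of the batch difference (y axis) in each quartile of transcript GC content (x axis, range of the quartile in percent) over 9949 genes. Both sides run from positive medians in the quartile lowest in GC (0.31 in resistant 1 and 0.56 in vehicle) to negative ones in the highest (-0.42 and -0.49), and the batch difference runs the other way over a smaller range.

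With the GC trend of each library taken out, 5052 genes were called for the batch difference, 2218 higher and 2834 lower. Of these, 4486 were called in the same direction as without the step and 0 in the opposite one. The side shifts changed more: 8195 genes were called for resistant 1 (4926 higher and 3269 lower, with 190 in the opposite direction) and 8325 for vehicle (5498 higher and 2827 lower, with 478 in the opposite direction). The Pearson correlation of the side shifts across genes was 0.48 with the step and 0.62 without it. By side, the 5052 genes then held 810 in opposite directions, 1440 on the resistant side only, 1631 on the vehicle side only and 1074 in the same direction. Among the genes named, the step moved 14 of 71 called resistant shifts and 19 of 68 called vehicle shifts by over 1.5 times, and 0 of 76 called batch differences. This step was chosen after the data had been seen, and it also removes any difference between the cells that follows GC content.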

How the data were processed

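Total RNA was isolated with a Qiagen RNeasy kit, strand-specific libraries were made with a Roche Kapa mRNA HyperPrep kit and sequenced on a NovaSeq6000, per the labels' protocols. The deposited values are raw counts of reads per gene symbol, in 1 table for each batch; per the submitters' processing notes, reads were processed with the VIPER pipeline on hg38 and tested with DESeq2 1.22.1. No source used here gives the strand setting, aligner settings or annotation. Libraries were matched to columns by name, with 0 unmapped columns; 1 vehicle title of batch 2 carries a mistyped replicate, and its library name gives replicate 1.

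The 12 libraries were fitted with edgeR 4.0.16 (R 4.3.3): TMM scaling, filterByExpr, 1 mean per group, a robust quasi-likelihood fit with 8 residual degrees of freedom, and Benjamini-Hochberg adjustment over all 15209 genes, with 0.05 as the threshold. Contrasts were the batch difference, both side shifts and both within-batch effects. CPM values use the effective library sizes; log2 levels of single libraries, used for the pairing and GC checks, have a prior count of 2, fitted log2 changes have edgeR's default, and geometric means add 0.1 CPM. The depth of 14066821 to 51262668 counts per library limits genes near 1 CPM, and intervals cover counting error and the spread between libraries only. The steps were tested on simulated data. No 2 libraries were identical over 210 pairs.

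Members, gene lists and rules were chosen with earlier results of these data known. Genes named had (a) the 8 greatest positive and 8 greatest negative called batch differences with an absolute log2 of at least 1, at least 1 CPM in each group and 10 CPM in the highest, (b) the 6 greatest rises and falls of each side among genes called and not overlapping, with at least 10 CPM in the higher group and 3 counts in the lower, (c) up to 4 called members in each direction of a described list, or (d) belonged to a short fixed list; those that added nothing were left out, and some others are not reported here. Alternatives were RLE and upper quartile scaling, other filters, DESeq2 1.42.0, limma 3.58.1 voom, all 21 libraries, thinning of batch 2, replicate blocks, leaving out each library, 1 side alone and removal of the GC trend.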

Additional observations from a re-analysis of the deposited data

Results flagged for a closer look

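The resistant 1 effect was tested for a difference between the batches by the interaction term of the fit, and 5054 genes passed. Of these, 414 were called in both batches in opposite directions. Among the genes named, 10 turned in this way. With the batch 2 effect given before the batch 1 effect, the batch difference was 5.12 for CYFIP2 (1.61 and -3.51), 3.59 for MLXIPL (0.62 and -2.97), 8.53 for C3 (6.38 and -2.15) and 4.23 for THBS1 (3.35 and -0.88). It was 3.16 for EPAS1 (1.42 and -1.74) and 1.32 for SEL1L (0.69 and -0.63). In the other direction it was -2.48 for SLC22A4 (-1.07 and 1.41), -1.95 for KDM7A (-0.45 and 1.49) and -1.77 for HSPA8 (-1.33 and 0.45). The smallest was -0.78 for PSME3 (-0.45 and 0.33). All values are log2, and batch, culture and depth cannot be told apart in them.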

How the results depend on the processing

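The batch difference was called for 5054 genes and for 4921 with RLE size factors, 4872 with upper quartile scaling, 4985 without a low-count filter, 3907 with a mean of at least 10 CPM, 5149 with DESeq2 (4674 shared), 4759 with all 21 libraries and 4701 with batch 2 thinned. Limma voom, added after the data had been seen, called 5417. With an absolute log2 of at least 1, 705 genes were called among those averaging at least 10 CPM, where fewer genes were tested, against 1609. Same-numbered libraries deviated together by correlations of 0.094 to 0.156 in batch 2, 0.017 to 0.06 in batch 1 and -0.051 to 0.013 across batches. Differently numbered libraries were not compared, so these values have no baseline. The main fit did not take the numbers as pairs. The replicate block gave 5147 calls and the block within batch 5565. Leaving out single libraries gave 4187 (without resistant 1 batch 1 replicate 1) to 6003 calls (without resistant 1 batch 2 replicate 2), 1408 to 1881 with an absolute log2 of at least 1, 1837 to 2689 higher and 2350 to 3314 lower, 7871 to 9299 for the resistant shift and 8478 to 9886 for the vehicle shift. By side the ranges were 563 to 1071 in opposite directions, 1121 to 1959 in the same direction, 943 to 1289 on the resistant side only and 1326 to 1670 on the vehicle side only. With the GC trend removed, 5 side shifts of named genes that were called as fitted turned: GATA1 in resistant 1 (0.274), and in vehicle FASN (0.218), RELB (0.28), SPI1 (0.245) and BBC3 (0.377). Of the other values of named genes, 5732 kept their side of the threshold, 55 lost their call and 55 gained one. Values called in neither fit are among the 5732 whatever their direction. The vehicle shift of CHAC1, for example, ranged from -0.608 to 0.469. The batch differences that lost their call were those of INSIG1, SCD, SSR3 and CHAC1. Those of DDIT3 and NSUN5P1 gained a call when 1 library was left out (DDIT3 also with the block within batch), and HBZ and HBA2, at 0 in vehicle, with voom. Of the list medians, 2343 moved by less than the spread between libraries and 72 by more. The cause of these changes was not tested.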
